A study of Amphimedon queenslandica with 43 samples.

Results

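In single larvae of the sponge Amphimedon queenslandica, 180 of 44016 counted transcript models with an Aqu2.1 identifier (0.409%) were at 0 counts in some larvae and at a high level in other larvae of the same age and light regime. They were chosen by one rule. CPM, counts per 1000000, scales a count to the larva's total count, a larva was called off for a model at 0 counts and on at 20 CPM or more, and a member had at least 1 larva off and at least 1 larva on in each of at least 4 of the 6 groups of larvae. The rule used the levels themselves, so the on and off states below are given as a description with no test. The labels name no parent or clutch, so how the larvae of a group are related is not known here.

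The study asked how light bears on the transcripts of a larva as it becomes able to settle. Larvae were collected over 30 minutes from 11 am, placed by 0.5 hours post emergence (hpe) into filtered sea water under one of 3 light regimes, and sampled whole at 1 hpe, before competence to settle, or at 9 hpe, when competent. The regimes were natural day-night light, constant light from a fluorescent tube, and constant dark, under a neutral density filter that let 6.6% of the daylight through. Each of the 43 larvae was sequenced alone by CEL-Seq2, which reads the 3' end of transcripts. There were 7 day-night, 7 constant-dark and 7 constant-light larvae at 1 hpe, and 8 day-night, 7 constant-dark and 7 constant-light larvae at 9 hpe. Age at sampling and time of day cannot be told apart in this design.

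Amphimedon queenslandica is a demosponge that broods its embryos and releases ciliated, non-feeding larvae. A ring of pigmented cells with long cilia at the rear of the larva steers it away from light, and after hours of swimming the larva can settle and turn into a juvenile. Sequencing one animal at a time keeps differences between individuals that pooled samples average out, and in RNA of a whole larva fewer cells that hold a transcript and less transcript per cell cannot be told apart.

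No gene name stands beside an identifier in the files, and 0 of the 47411 listed identifiers matched the RefSeq gene table used here, so models are called by their identifiers and no function is given. A larva had 1890954 to 3927366 counts in all (median 2869317). At these depths 20 CPM stood for 37.8 to 78.5 counts and a single count for 0.255 to 0.529 CPM, and the 3 counts that a count of 0 allows stood for 0.764 to 1.59 CPM. Such floors, like the count intervals given below, cover counting error only. On the second principal component of the 14018 tested models outside the rule, 8 larvae stood apart from the others, at -35.9 or lower against -15.5 or higher. They were constant-dark replicates 3, 5 and 6 at 1 hpe, constant-light replicate 7 at 1 hpe, and constant-light replicates 2, 3, 5 and 7 at 9 hpe, with 0 of the 15 day-night larvae. The number of members, the members on per group, the named pairs and the named calls are also given without these 8. Other larvae lay at the opposite end of this component, at 29.1 to 43.5, with the next larva at 13.7. They were constant-light replicates 1, 2 and 3 and day-night replicates 4 and 6 at 1 hpe, and constant-dark replicate 7 and day-night replicates 1 and 5 at 9 hpe. As a set they were not left out of any fit or count. In the closest pair of larvae within a group the chi-square per degree of freedom between their counts was 11.5, so no pair of replicates agreed within sampling noise.

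A model could be at 0 in many larvae or reach 20 CPM in many larvae without doing both. There were 8062 Aqu2.1 models that reached 20 CPM in at least 4 groups, of which the members made up 2.23%, and 30154 that held a larva at 0 counts in at least 4 groups. Only 214 did both, counted over all groups, and 180 of these did so within the same 4 or more groups. Of the 180 members, 105 were split between off and on in 4 groups, 46 in 5 groups and 29 in all 6 groups. A further 130 models were split in 3 groups, 245 in 2 groups and 601 in 1 group. Just inside the rule lay Aqu2.1.22348_001, whose fourth-highest group maximum was 20.003 CPM, and Aqu2.1.15198_001, where it was 20.1 CPM. Just outside lay Aqu2.1.26411_001 and Aqu2.1.44715_001, split in 3 groups, both with a next group maximum of 19.96 CPM. The count depended on the thresholds: it was 408 with on set at 10 CPM and 67 with on set at 40 CPM. Without the 8 larvae that stood apart, which leaves fewer larvae in 3 groups, it was 101.

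Over the 7740 values of the 180 members in 43 larvae, 2512 (32.5%) were off and 2161 (27.9%) were on. Another 996 (12.9%) were at 1 or 2 counts, and 2071 (26.8%) lay from 3 counts to below 20 CPM. A member was off in 4 to 36 larvae, with a median of 12, and on in 4 to 35 larvae, with a median of 10.5. In the larvae that were on, a member's median level was 21.1 to 182 CPM, with a median over members of 37.1 CPM. The highest larva of a member reached 25.4 to 821 CPM, and 57 members reached 100 CPM. In the 824 splits of a member within a group, the highest larva was at least 13.2-fold to at least 861-fold above the 3-count floor of the larvae at 0, with a median bound of 41.1-fold.

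**Figure D1:**
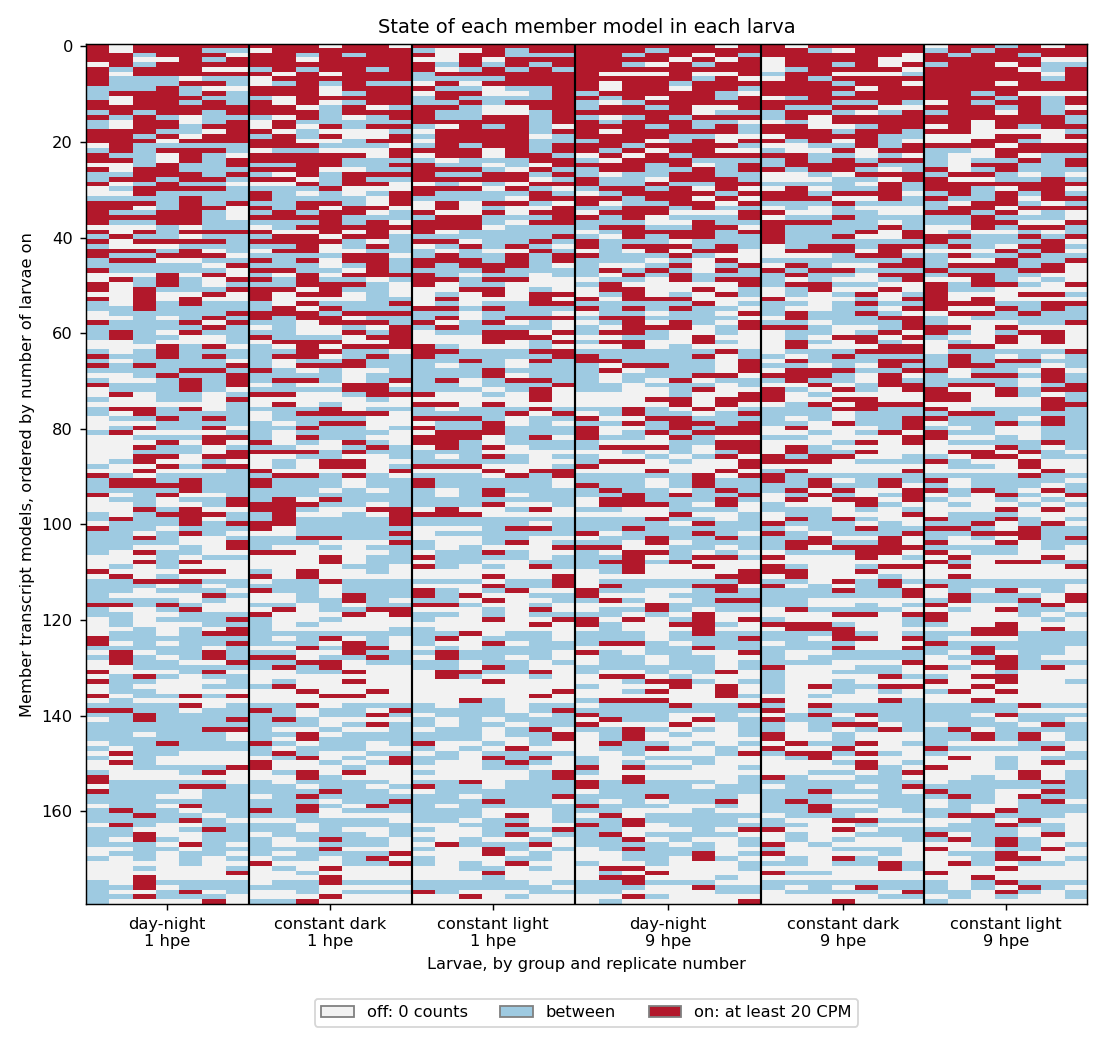
State of each of the 180 member models (rows, ordered by the number of larvae on) in each of the 43 larvae (columns, by group and replicate number). White marks 0 counts, blue a count below 20 CPM and red 20 CPM or more; red and white cells lie side by side within every group, and a single member was on in 4 to 35 larvae.

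Each larva had its own selection of members on. A larva had 35 to 73 members on (median 50) and 39 to 74 members off (median 59). As mean ± SD over the 7 or 8 larvae of a group, the number on was 46.9 ± 6.47 for day-night, 51.4 ± 5.62 for constant dark and 45.7 ± 6.37 for constant light at 1 hpe. At 9 hpe it was 53.1 ± 8.51 for day-night (n = 8), 51.3 ± 4.64 for constant dark (n = 7) and 52.7 ± 9.76 for constant light (n = 7). With all larvae the group means differed by about the spread between larvae of a group. Without the 8 larvae that stood apart they were 50.5 ± 2.38 for constant dark (n = 4) and 44.3 ± 5.72 for constant light (n = 6) at 1 hpe. For the 3 constant-light larvae left at 9 hpe the mean was 59.7 ± 6.51. The constant-light means at 1 and 9 hpe then differed by more than the SD of either group, which was not tested. The CPM summed over all members was 2419 to 5102 per larva, less than 1% of any library.

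A member on in 4 of 6 groups must be on at both ages, so the rule itself fixed that all 180 were on in at least 1 larva at each age. Beyond that, 165 were on in at least 1 larva of each of the 3 regimes, and 77 were on in at least 1 larva of every group. The median member was on in 5 of the 21 larvae at 1 hpe and in 6 of the 22 larvae at 9 hpe.

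The 8 members with the highest level in the larvae that were on, among those split in all 6 groups, show the pattern most fully. Aqu2.1.19929_001 was on in 16 larvae, at a median of 159 CPM, and off in 18. Its lowest larva was at 0 in every group. At 1 hpe the median and highest levels of the day-night larvae were 126 and 283 CPM, those of the constant-dark larvae 0.353 and 336 CPM, and those of the constant-light larvae 0.319 and 138 CPM. At 9 hpe the same levels were 0.150 and 147 CPM for day-night, 161 and 283 CPM for constant-dark and 0 and 180 CPM for constant-light larvae. All groups therefore overlapped from 0 to over 100 CPM, and between 1.29 and 126 CPM there was no larva at all. The larvae on were 4 of 7, 2 of 7 and 1 of 7 at 1 hpe and 3 of 8, 4 of 7 and 2 of 7 at 9 hpe, in the order day-night, constant dark and constant light.

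Aqu2.1.12991_001 was on in 14 larvae, at a median of 135 CPM, and off in 13. Its lowest larva was at 0 in every group, and its highest day-night, constant-dark and constant-light larvae at 1 hpe were at 131, 352 and 157 CPM. At 9 hpe the highest larvae were at 217, 202 and 285 CPM in the same order of regimes. Its median larva was on in constant dark at 1 hpe, at 74.1 CPM, and lay at 0 to 1.32 CPM in the other 5 groups. The 29 larvae that were not on ended at 1.74 CPM, and the lowest larva that was on held 50.2 CPM.

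Aqu2.1.04809_001 was on in 15 larvae, at a median of 100 CPM, and off in 10. At 1 hpe 1 of 7 day-night larvae held 124 CPM and the next 3.66 CPM, and 1 of 7 constant-dark larvae held 143 CPM and the next 0.884 CPM. In constant light at 1 hpe 4 of 7 larvae were on, at 105 to 124 CPM, and the other 3 were at 0.672 CPM or below. At 9 hpe 2 of 8 day-night, 3 of 7 constant-dark and 4 of 7 constant-light larvae were on, with highest levels of 100, 117 and 96.0 CPM. The larvae of this model therefore all lay in one of 2 ranges, up to 3.66 CPM or from 39.6 to 143 CPM.

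Aqu2.1.20087_001 came closest of these 8 to a model with only 2 states. It was at 0 in 26 larvae and on in 14, at a median of 68.9 CPM, and in the remaining 3 larvae it lay at 0.365, 0.424 and 3.17 CPM. The highest larvae of the groups were at 67.5 to 109 CPM, and 1 to 4 larvae of every group were on. In the day-night group at 9 hpe 4 of 8 larvae were on, at 54.4 to 109 CPM, and the other 4 were at 0.

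In the other 4 of the 8 the highest larva below 20 CPM lay higher, at 5.25 to 17.98 CPM, against 1.29 to 3.66 CPM in the first 4. Aqu2.1.05034_001 was on in 11 larvae, at a median of 80.7 CPM, with the larvae not on at 5.25 CPM or below. Aqu2.1.06990_001 was on in 13 larvae and reached 348 CPM in a day-night larva at 1 hpe whose 6 fellow larvae held at most 7.05 CPM. Aqu2.1.07402_001 was on in 9 larvae, at a median of 93.8 CPM, and off in 19, with the rest up to 11.8 CPM. Aqu2.1.12994_001 was on in 13 larvae, at a median of 64.0 CPM, and at 0 in 25, and its highest larva below the limit held 17.98 CPM.

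**Figure D2:**
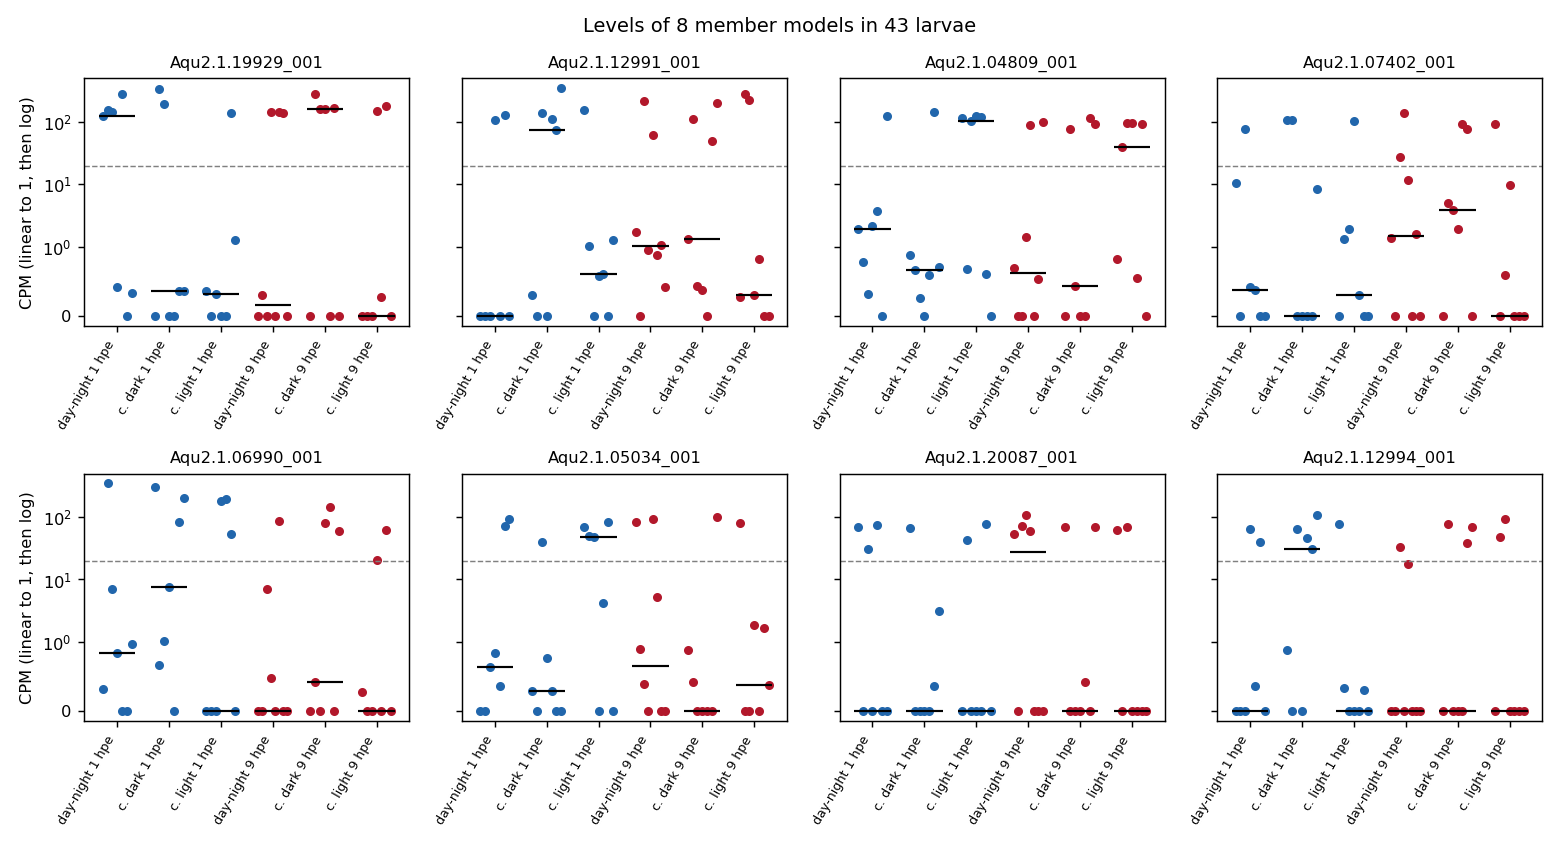
Level of 8 member models in each of 43 larvae, in CPM on an axis that is linear to 1 and logarithmic above, with larvae at 1 hpe in blue and at 9 hpe in red. Bars are group medians and the dashed line is 20 CPM; Aqu2.1.19929_001 had no larva between 1.29 and 126 CPM, and every model had larvae at 0 and above 20 CPM in all 6 groups.

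Such a gap was not shared by all members. The lowest level of the larvae on was 1.00 to 125 times the highest level of the larvae below 20 CPM, with a median over members of 1.35. In 37 members it was at least 5 times higher, and in 106 it was less than 1.5 times higher, so that the larvae of most members ran through 20 CPM without a break. By the number of larvae between the states, 9 members had at most 3 larvae neither off nor on, 76 had 20 or more, and 0 had none.

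Among the 9 members with the fewest larvae in between, Aqu2.1.28758_001 was on in the most larvae of all members, 35 of 43, at 37.97 to 140 CPM, and at 0 in 7. The last larva held 0.305 CPM. In constant light at 1 hpe all 7 larvae were on, at 37.97 to 120 CPM with a median of 69.5 CPM, and in the other 5 groups 1 or 2 larvae were at 0. Aqu2.1.31706_001 was on in 29 larvae, at a median of 42.8 CPM, at 0 in 13 and at 0.274 CPM in 1. Aqu2.1.04553_001 was the reverse, at 0 in 36 larvae and on in 5, at 37.7 to 57.7 CPM. Those 5 larvae were day-night replicate 3 and constant-dark replicate 4 at 1 hpe, day-night replicates 2 and 3 at 9 hpe and constant-light replicate 3 at 9 hpe. Aqu2.1.15979_001 was at 0 in 32 larvae and on in 9, at a median of 58.1 CPM, and Aqu2.1.26790_001 was at 0 in 31 and on in 9, at a median of 30.4 CPM.

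The members on in the fewest larvae were on in 4, and those named by the rule were Aqu2.1.08138_001, Aqu2.1.08233_001 and Aqu2.1.15198_001. Aqu2.1.08233_001 held 260 CPM in day-night replicate 3 and 80.5 CPM in constant-dark replicate 4 at 1 hpe, 76.3 CPM in constant-light replicate 3 at 1 hpe and 66.2 CPM in day-night replicate 3 at 9 hpe, and was at 0 in 27 larvae. Aqu2.1.08138_001 and Aqu2.1.15198_001 reached only 39.7 and 31.8 CPM, and had 26 and 22 larvae between the states. At the other end, Aqu2.1.28758_001, Aqu2.1.08859_001 and Aqu2.1.31706_001 were on in 35, 30 and 29 larvae. Aqu2.1.08859_001 had a median of 85.5 CPM in the larvae on and was on in every day-night larva at 9 hpe but one, which held 3.33 CPM.

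Most pairs of members showed little likeness in the larvae in which they were on. Likeness of a pair of members was measured with phi, the correlation of being on over the 43 larvae, which is 1 when both are on in the same larvae. Over the 16110 pairs phi had a median of -0.00427, and its 5th and 95th percentiles were -0.244 and 0.286. The pairs share larvae, so no p is given. At least 0.6 was reached by 25 pairs. Most of these held a member on in fewer than 10 larvae, so their phi rested on few shared larvae. Their levels as log2(CPM + 1) need not move together. Aqu2.1.10155_001 and Aqu2.1.24131_001, on together in 3 larvae, had a Pearson r of 0.216, and Aqu2.1.06990_001 and Aqu2.1.12476_001, on together in 6, had 0.980. Only 17 of the 16110 pairs had identifiers 1 to 10 numbers apart, and 2 of these 17 reached 0.6, with a median phi over the 17 of 0.0366. Phi sees only which side of 20 CPM a larva lies on. Pearson r of the levels over these 17 pairs ran from -0.251 to 0.983. It could be high where phi was low, at 0.948 with a phi of 0.297 for Aqu2.1.28758_001 and Aqu2.1.28759_001. For Aqu2.1.19929_001 and Aqu2.1.19931_001 both were low, at 0.0867 and 0.0664.

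Among members on in 10 to 33 larvae, with each model named once, the most alike were Aqu2.1.12991_001 and Aqu2.1.12994_001, whose numbers differ by 3. They were on together in 13 larvae, and the first alone was on in 1 more larva (phi = 0.947). Over the 43 larvae their levels as log2(CPM + 1) had a Pearson r of 0.983. In constant-dark replicate 7 at 1 hpe, for example, they held 352 and 108 CPM, and in constant-light replicate 3 at 9 hpe 225 and 94.5 CPM. The larva on for the first alone was day-night replicate 5 at 9 hpe, where Aqu2.1.12991_001 held 61.7 and Aqu2.1.12994_001 17.98 CPM.

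Next came Aqu2.1.14250_001 and Aqu2.1.21122_001, with numbers 6872 apart (phi = 0.891, Pearson r = 0.965). All 11 larvae on for the second were among the 13 on for the first. In constant-dark larvae at 1 hpe the first held 221, 168, 170 and 182 CPM in replicates 1, 2, 3 and 5 and the second 179, 142, 89.6 and 94.3 CPM. The second was on in these 4 constant-dark larvae alone at 1 hpe, and the first in 6. Both stayed at or below 2.1 CPM in every constant-light larva at 1 hpe. The third pair, Aqu2.1.19161_001 and Aqu2.1.19163_001, was on together in 8 larvae out of 10 for each (phi = 0.739). Without the 8 larvae that stood apart phi of these 3 pairs was 0.925, 0.910 and 0.720. Outside the range of 10 to 33 larvae, Aqu2.1.08231_001 and Aqu2.1.22225_001 were on in the same 6 larvae, at 21.4 to 42.6 and 24.2 to 45.0 CPM, which was the single pair with phi at 1. This pair was picked after its values were seen, and without the 8 larvae it rests on 2 larvae. Its numbers lie 13994 apart.

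Other pairs were seldom on in the same larva. Aqu2.1.06467_001 was on in 12 larvae and Aqu2.1.31706_001 in 29, and they were on together in 3 (phi = -0.564). In the other 9 larvae with Aqu2.1.06467_001 on, Aqu2.1.31706_001 was at 0, and in 23 larvae with Aqu2.1.31706_001 on, Aqu2.1.06467_001 was at 0. Aqu2.1.33427_001 and Aqu2.1.39149_001 were on in 10 and 28 larvae and together in 2 (phi = -0.521). Aqu2.1.01792_001 and Aqu2.1.15038_001 were each on in 19 larvae and together in 3 (phi = -0.509). These are the 3 lowest values among members on in 10 to 33 larvae, with each model named once, and the lowest over all 16110 pairs was -0.583. Without the 8 larvae that stood apart the 3 values were -0.548, -0.475 and -0.545. No test of them was made.

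Some members moved with models of neighbouring numbers. The files give no coordinates for the models, so only the distance between identifier numbers could be used, and whether near numbers stand for near positions, shared reads or the same transcript was not tested. Of the 132 pairs of a member and a tested model 1 number away, 40 (30.3%) had a Pearson r of at least 0.5 over the 43 larvae, against 13.7% of the 15868 such pairs counted from every tested model. At 2 numbers the shares were 19.01% and 8.36%, at 3 numbers 10.2% and 6.78%, and at 10 numbers 2% and 4.004%. At 50, 100 and 500 numbers 0 of 93, 99 and 102 member pairs reached 0.5, against 3.49%, 3.47% and 2.57% of all pairs. The members' share was thus above that of all pairs at 1 to 4 numbers and below it from 5 numbers on. Median r was about the same for members and for all pairs at 1 number, 0.148 and 0.145, and at 5 numbers it was 0.00662 for members and 0.0589 for all pairs. Pairs share larvae and members were chosen for their spread, so these shares are a description. Within 10 numbers 62 of the 176 members with a tested model there (35.2%) had a model at r of at least 0.5, close to the 33.9% of 13660 tested models, and 33 members lay within 10 numbers of another member.

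**Figure D3:**
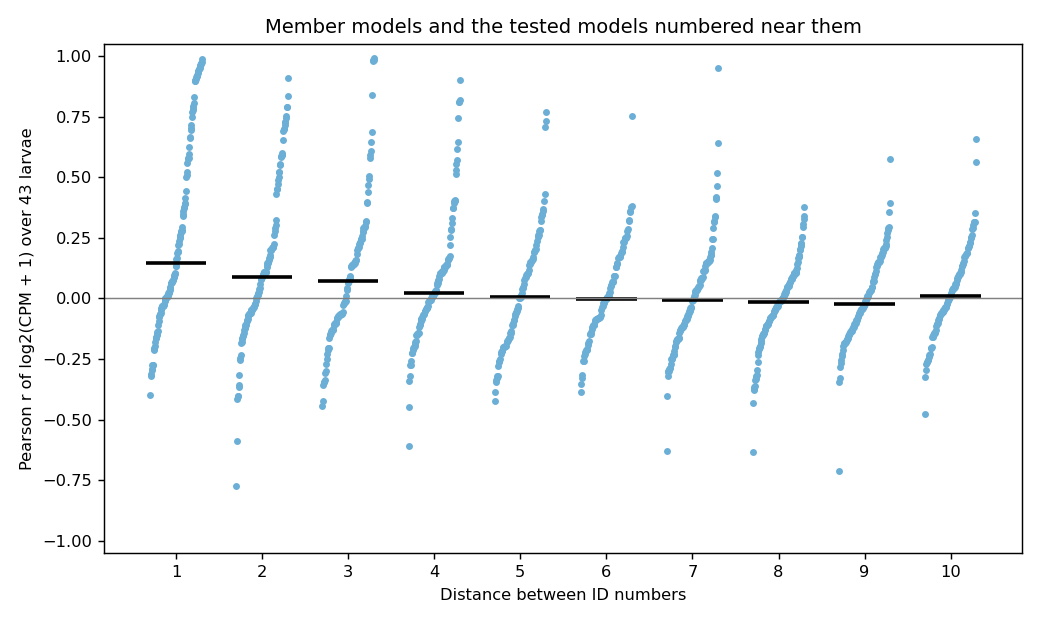
Pearson r of log2(CPM + 1) over 43 larvae between each member model and each tested model 1 to 10 identifier numbers away; points are pairs, sorted within a distance, and bars are medians. High values gather at 1 to 4 numbers, where the median falls from 0.148 to near 0, and few pairs lie below -0.5.

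The following neighbours were chosen after their values were seen. Aqu2.1.15688_001 and Aqu2.1.15691_001 were both at 0 in 22 larvae (r = 0.991), and in the larva with the highest level of each, constant-light replicate 1 and day-night replicate 8 at 9 hpe, they held 57.0 and 25.3 CPM and 56.9 and 27.003 CPM. Aqu2.1.26790_001 and Aqu2.1.26789_001 were both at 0 in 31 larvae, among them all 14 constant-light larvae (r = 0.989). Aqu2.1.19929_001, at 126 CPM or more in 16 larvae, was followed by Aqu2.1.19930_001, which did not reach 20 CPM in any larva and was above 3 CPM in the same 16 larvae, at 3.81 to 13.1 CPM (r = 0.977). Aqu2.1.14181_001 and Aqu2.1.14180_001 were on together in 18 larvae (r = 0.959). In each of these pairs the partner followed the member at a level of its own, lower for Aqu2.1.19930_001 and in the same range for Aqu2.1.14180_001.

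A partner need not be off where the member is off. Aqu2.1.43463_001, next to the member Aqu2.1.43464_001, was on in all 43 larvae, while the member was at 0 in 26 of them (r = 0.830). Aqu2.1.30483_001 held at least 5.05 CPM in every larva and 336 to 399 CPM in 5 larvae, and the member Aqu2.1.30482_001, at 0 in 26 larvae, held 34.6 to 79.0 CPM in those 5 (r = 0.916). Opposite movement was rarer: 3 of the 176 members (1.70%) had a model within 10 numbers at r of -0.5 or lower, against 11.5% of all tested models. The lowest was the member Aqu2.1.24670_001, at 0 to 51.0 CPM, with Aqu2.1.24668_001, at 51.9 to 260 CPM (r = -0.773). In the 2 larvae with the highest level of the partner, constant-dark replicate 7 at 1 hpe and constant-light replicate 5 at 1 hpe, the member held 0.705 and 0.605 CPM. The other members were Aqu2.1.29398_001, for example with Aqu2.1.29402_001 (r = -0.610), and Aqu2.1.40036_001, for example with Aqu2.1.40034_001 (r = -0.588). Among the same 3 members, further pairs had r of -0.631, -0.635 and -0.710, at 7, 8 and 9 numbers. Models read at their 3' ends can share reads with near-identical copies or overlapping neighbours, and the sources used here do not say whether counting used the strand.

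Any pair of larvae differed in the state of many members. For each of the 903 pairs of larvae, the share in the same state was taken over the 49 to 89 members that were on or off in both. It ran from 41.5% to 92.1%, with a median of 59.2%. The rule chose members that differ within groups, so larvae of the same group are not set against larvae of different groups here. The 8 larvae that stood apart on the other models were more alike among themselves, at 60.8% to 78.4% with a median of 71.8% over their 28 pairs, against medians of 59.1% for pairs with 1 of them and 58.7% for pairs with none. Pairs with none ran from 41.5% to 92.1%. They include pairs of larvae from the opposite end of the second principal component, which were not summarized as a set. Among these, day-night replicate 5 and constant-dark replicate 7 at 9 hpe agreed on 78.4%, and constant-light replicates 2 and 3 at 1 hpe on 78.1%. Over all pairs, the share in the same state and the Spearman correlation of the 14018 non-member models had a Pearson r of 0.220 and a Spearman rho of 0.160. Pairs share larvae and library depth, so no p is given.

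One pair went beyond the rest. Day-night replicate 4 and constant-light replicate 1, both at 1 hpe, were in the same state for 58 of 63 members, or 92.1%, and their correlation over the other models, 0.915, was second of the 903 pairs. The next pair, constant-dark replicate 7 at 1 hpe and constant-dark replicate 2 at 9 hpe, agreed on 56 of 70 members, or 80%, with a correlation of 0.871 that ranked 262. The 2 larvae of the first pair were of different regimes, and their counts differed by more than sampling noise, at a chi-square of 15.1 per degree of freedom. Both lay at the end of the second principal component opposite to the larvae that stood apart, at 40.9 and 43.5.

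**Figure D4:**
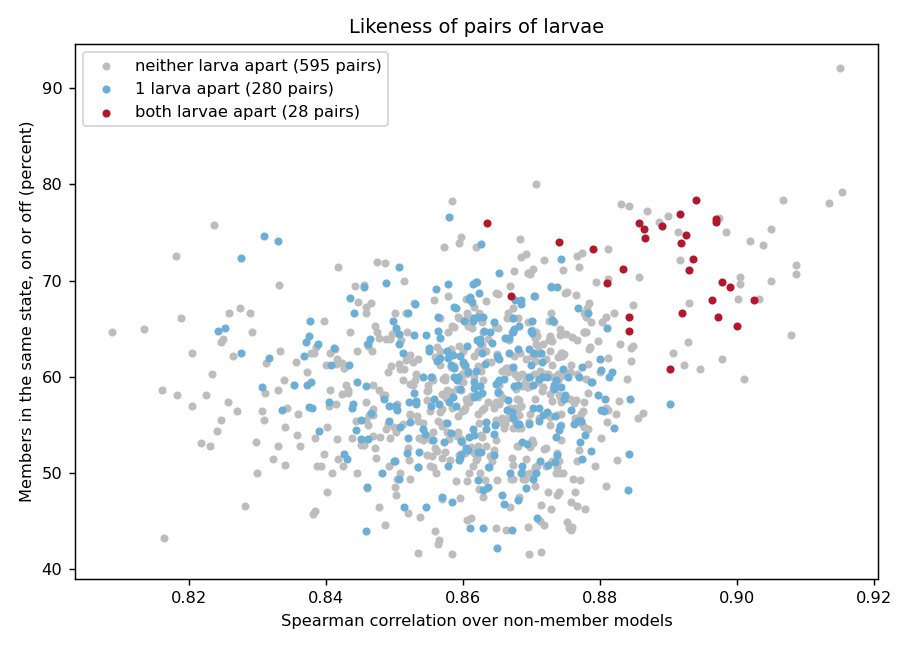
Share of members in the same state, on or off, for each of the 903 pairs of larvae (percent, vertical) against the Spearman correlation of the pair over non-member models (horizontal). Red points are the 28 pairs in which both larvae stood apart on the second principal component, at 60.8% to 78.4%, and the single point above 90% is day-night replicate 4 with constant-light replicate 1 at 1 hpe.

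Differences between the groups were tested on all models at once, with edgeR's quasi-likelihood test adjusted over 14188 models. Of the 180 members 170 passed the filter on low counts and 10 were not tested. Between 9 and 1 hpe 5 tested members were called in day-night larvae, 4 higher and 1 lower at 9 hpe, where 22% of all tested models were called (9.94% higher and 12.1% lower). In constant-dark larvae 5 members were called, 0 higher and 5 lower, where 20% of all models were called (9.39% higher and 10.6% lower). In constant-light larvae 6 were called, 4 higher and 2 lower, where 6.11% of all models were called (2.63% higher and 3.48% lower). The members' shares were 2.94%, 2.94% and 3.53%, below the share of all models each time. The rule chose members for their spread within groups, and the standard error of a member's log2 fold change had a median of 1.30 to 1.36 in these comparisons, against 0.333 to 0.343 over all tested models. The smallest absolute log2 fold change of a called member was 5.45, 5.19 and 4.89 in the same order of regimes. Which smaller age changes of a member could be detected, and why the members' shares were lower, was not tested.

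Between regimes few members were called. At 1 hpe edgeR called 0 members in constant dark against day-night, where 0.0141% of all models were called, 0 in constant light against day-night (0.874% of all models) and 0 in constant light against constant dark (0.148% of all models). At an unadjusted p below 0.05 there were 15, 21 and 16 members in these comparisons, or 8.82%, 12.4% and 9.41% of those tested, against 8.25%, 13.6% and 11.9% of all models. DESeq2 called 1, 4 and 4 members, or 0.588%, 2.35% and 2.35%, against 0.211%, 2.45% and 0.740% of all models. With limma voom 0 members were called in each, against 0.00705%, 0.867% and 0.106% of all models. At 9 hpe 1 member was called in each comparison. The first was lower in constant dark than in day-night, where 1.71% of all models were called and 1.4% were lower. The second was lower in constant light than in day-night, with 4.85% of all models called and 1.97% lower. The call in constant light against constant dark was of the same model as the first, higher in constant light, with 0.818% of all models called and 0.684% higher. In all 9 comparisons the 170 tested members had a larger median absolute log2 fold change than all tested models, 0.645 to 0.915 against 0.239 to 0.452, with signed medians of -0.297 to 0.0996. Their median standard error was larger too, 1.30 to 1.37 against 0.330 to 0.343. The rule chose members for their spread within groups, so these sizes are a description and not a result about group differences. The regime comparisons of one age share larvae, as do the age and the regime comparisons of one group.

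**Figure D5:**
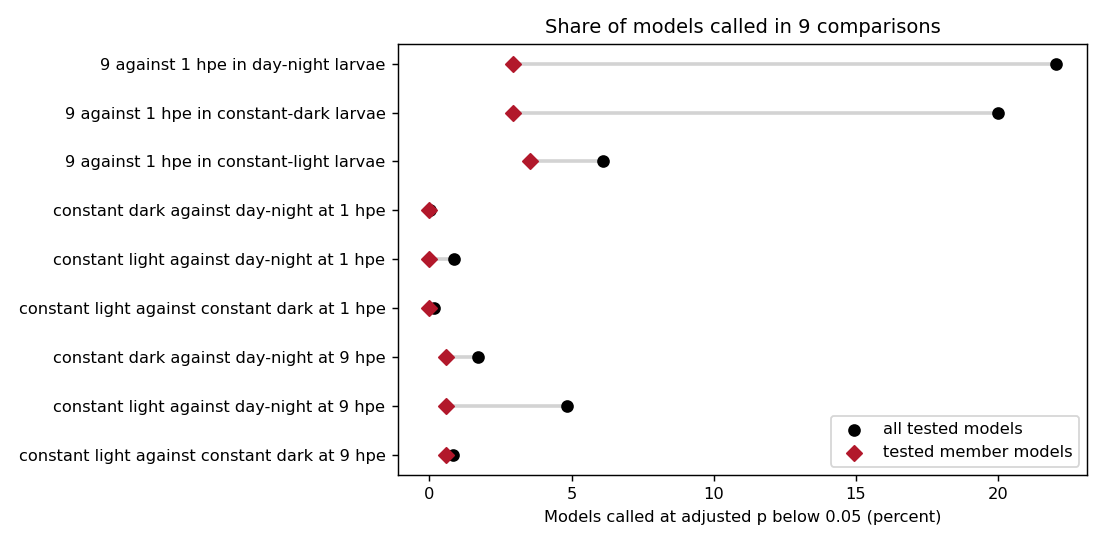
Percent of models called at an adjusted p below 0.05 (edgeR) in each of the 9 comparisons, for the 170 tested members (red diamonds) and all 14188 tested models (black circles). The members lie at 0 to 3.53% in every comparison, and all tested models at up to 22%.

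There were 19 calls over 17 members, and by the naming rule at most 2 in each direction are described for each comparison. In each of the 19, 1 to 5 larvae of the higher group were on and all larvae of the lower group were below 20 CPM, and every one had an absolute log2 fold change of at least 4.89. Fitted fold changes of models with so few counts in one group depend on the prior count, so those of the calls described stand beside a pooled ratio or a bound. The pooled ratio is the summed count over the summed library size of the higher group, divided by that of the lower group. The adjusted p values that follow are edgeR's.

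In day-night larvae Aqu2.1.41196_001 was at 0 to 0.644 CPM in the 7 larvae at 1 hpe. At 9 hpe it held 173, 187 and 23.6 CPM in 3 of 8 larvae and at most 0.529 CPM in the other 5 (log2 fold change 7.88 ± 2.67 SE, adjusted p = 0.0286). The pooled ratio was 386, with a counting interval of 132 to 1876 from 3 counts at 1 hpe. Aqu2.1.06467_001 held 47.0 and 91.5 CPM in 2 of 8 larvae at 9 hpe, 0 in the other 6, and 1 count in all at 1 hpe (7.47 ± 2.54, adjusted p = 0.0295; ratio 299.7, interval 53.4 to 11877). Aqu2.1.04208_001 was lower at 9 hpe, at 3.29 CPM or below in 8 larvae, after 185, 191 and 62.8 CPM in 3 of 7 larvae at 1 hpe (-6.12 ± 1.91, adjusted p = 0.0171; ratio 60.5, interval 39.4 to 98.0). Leaving out each of the 15 larvae in turn kept the last call each time. The call of Aqu2.1.41196_001 was kept in 10 of 15 refits and lost without day-night replicates 1, 4 or 5 at 1 hpe or 2 or 3 at 9 hpe, with an adjusted p of up to 0.0527. That of Aqu2.1.06467_001 was kept in 8 of 15 and was lost without any day-night larva at 1 hpe but replicate 6, or without replicate 7 at 9 hpe, where it was highest and the adjusted p became 0.0761.

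In constant-dark larvae Aqu2.1.22344_001 and Aqu2.1.31218_001 were at 0 counts in all 7 larvae at 9 hpe. At 1 hpe Aqu2.1.22344_001 held 16.1, 36.1 and 23.9 CPM in 3 of 7 larvae and at most 0.353 CPM in the others, so its pooled level was at least 60.4-fold higher than a floor of 3 counts over the group (adjusted p = 0.0338). Aqu2.1.31218_001 held 44.4, 1.09 and 18.3 CPM in 3 of 7 larvae and 0 in the others, at least 45.8-fold higher by the same floor (adjusted p = 0.0279). The call of Aqu2.1.31218_001 was lost only without constant-dark replicate 4 at 1 hpe, which held 44.4 CPM (adjusted p = 0.0880). That of Aqu2.1.22344_001 was kept in 6 of 14 refits, and was lost without replicates 4 or 5 at 1 hpe or any of replicates 2 to 7 at 9 hpe, with an adjusted p of up to 0.0617. In both models larvae of other groups were on at 9 hpe: Aqu2.1.22344_001 held 44.3 and 49.9 CPM in 2 of 8 day-night larvae and 23.1 CPM in a constant-light larva, and Aqu2.1.31218_001 held 29.6 to 39.6 CPM in 3 of 8 day-night larvae and 31.1 to 56.0 CPM in 3 of 7 constant-light larvae.

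In constant-light larvae Aqu2.1.39577_001 rose from 1 count in all at 1 hpe to 59.3, 30.8 and 26.1 CPM in 3 of 7 larvae at 9 hpe (7.42 ± 2.34, adjusted p = 0.0479; ratio 373, interval 66.6 to 14785). Aqu2.1.14250_001 rose from at most 2.1 CPM to 135, 187 and 187 CPM in 3 of 7 larvae (6.53 ± 1.92, adjusted p = 0.0323; ratio 113, interval 68.1 to 202). Those 3 larvae, replicates 2, 3 and 5, were among the 8 that stood apart. Without the 8 the log2 fold change of Aqu2.1.14250_001 was 0.30 and its adjusted p 0.973, within a range of 0.00133 to 0.973 over its alternatives. The other calls were lower at 9 hpe. Aqu2.1.00322_001 held 92.0, 178 and 97.1 CPM in 3 of 7 larvae at 1 hpe and 2 counts in all at 9 hpe (-8.76 ± 2.42, adjusted p = 0.0225; ratio 587, interval 162 to 4851). Aqu2.1.43252_001 held 155, 109, 179 and 181 CPM in 4 of 7 larvae at 1 hpe and at most 1.09 CPM at 9 hpe (-7.42 ± 2.18, adjusted p = 0.0317; ratio 168, interval 96.1 to 326).

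Leaving out single constant-light larvae changed several of these calls. That of Aqu2.1.00322_001 was lost only without replicate 4 at 9 hpe, the larva that held its 2 counts there (adjusted p = 0.0504). That of Aqu2.1.39577_001 was kept in 4 of 14 refits and lost without any larva at 1 hpe or without replicates 3, 4 or 6 at 9 hpe, with an adjusted p of up to 0.0986. Aqu2.1.14250_001 kept its call in 6 of 14 and lost it without any larva at 1 hpe but replicate 6 or without replicates 3 or 5 at 9 hpe, with an adjusted p of up to 0.0634. Aqu2.1.43252_001 kept its call in 6 of 14 and lost it without replicate 6 at 1 hpe or any larva at 9 hpe, with an adjusted p of up to 0.0624. The log2 fold changes of these 4 models kept their sign in all 14 refits.

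At 9 hpe Aqu2.1.18494_001 was at 0 to 0.421 CPM in the 7 constant-dark larvae. In day-night it held 42.5, 36.2 and 35.8 CPM in 3 of 8 larvae, 9.81 to 11.2 CPM in 3 more and 0.299 and 0.697 CPM in the other two, and in constant light it held 19.8 to 44.9 CPM in 6 of 7 larvae and 0 in 1. The constant-dark larvae overlapped 1 of 8 day-night and 1 of 7 constant-light larvae. It was called lower in constant dark than in day-night (-6.87 ± 1.75, adjusted p = 0.0249; ratio 150, interval 41.2 to 1243) and higher in constant light than in constant dark (7.69 ± 1.77, adjusted p = 0.0197; ratio 268, interval 74.0 to 2219). It was also called lower at 9 than at 1 hpe in constant-dark larvae (adjusted p = 0.00385), where 4 of 7 larvae at 1 hpe held 27.2 to 34.7 CPM. The 3 comparisons share the constant-dark larvae at 9 hpe. The first call was kept in 10 of 15 refits with 1 larva left out, and was lost without constant-dark replicates 1, 3, 5, 6 or 7, with an adjusted p of up to 0.0616. The second was lost only without constant-dark replicate 7 (adjusted p = 0.0501).

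Aqu2.1.30516_001 had the largest absolute log2 fold change of the 9-hpe regime calls. In day-night larvae at 9 hpe it held 52.5 to 407 CPM in 5 of 8 larvae, and 0, 1.59 and 16.5 CPM in the others. In the 7 constant-light larvae it held at most 0.752 CPM, 5 counts in all (-8.44 ± 1.93, adjusted p = 0.00508; ratio 409, interval 175 to 1261). The call was kept in all 15 refits with 1 larva left out. Without the 8 larvae that stood apart, 4 of which were constant-light larvae at 9 hpe, the adjusted p was 0.154, within a range of 1.05e-05 to 0.521 over its alternatives. At 1 hpe the same model was on in 5 of 7 day-night larvae and in 1 of 7 constant-light larvae, at 37.9 CPM.

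These calls depended on the test. Of the 12 described by the naming rule, 12 were kept with RLE scaling in place of TMM, 11 with DESeq2, 5 with the replicate number as a block, 4 without the 8 larvae that stood apart, 1 without the filter on low counts and 0 with limma voom, and 0 changed direction. The 4 kept without the 8 larvae were Aqu2.1.41196_001, Aqu2.1.06467_001 and Aqu2.1.04208_001 in day-night larvae and Aqu2.1.31218_001 in constant-dark larvae. No day-night larva was among the 8, so the groups of the day-night calls lost no larva and this refit hardly tests them. Of the kept calls, only that of Aqu2.1.31218_001 compared a group that had lost larvae. Among those lost, Aqu2.1.22344_001 and the lower level of Aqu2.1.18494_001 in constant dark than in day-night had adjusted p values of 0.0581 and 0.0571. The groups of this last comparison had also lost no larva. Aqu2.1.39577_001, Aqu2.1.00322_001 and Aqu2.1.43252_001 had 0.150, 0.247 and 0.328, and the higher level of Aqu2.1.18494_001 in constant light than in constant dark had 0.159. Over the 6 alternatives the adjusted p of Aqu2.1.04208_001 ran from 0.000994 to 0.427, that of Aqu2.1.18494_001 in constant dark against day-night from 0.000189 to 0.777, and that in constant light against constant dark from 0.000104 to 0.544.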

How the data were processed

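Per the labels' protocols, TRIzol extracts of single larvae were sequenced by CEL-Seq2. The authors deposited raw counts of 47411 transcript models in each larva. Which aligner, counter, genome build and annotation they used is not given in the sources used here. A second deposited table of normalized values was not used. Groups came from the sample titles. Replicates are separate larvae with no parent or batch in the labels, so a p-value reflects only how these larvae vary. Same-numbered larvae of different groups did not deviate together, so the numbers were not used as pairs.

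The members, the naming rule and the tests were chosen with earlier results of these data known. The naming rule took the 8 members with the highest median level when on among those split in all 6 groups, those nearest the threshold, the 3 most and 3 least alike pairs of members on in 10 to 33 larvae, those on in the fewest and most larvae, and at most 2 calls per direction and comparison. The part of the rule on other models with the same number found none.

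Totals per larva were 1890954 to 3927366 counts. With edgeR 4.0.16 (R 4.3.3), filterByExpr at a minimum count of 10 left 14188 models. Libraries were scaled with TMM, and 1 robust quasi-likelihood model with 6 group means was fitted to all 43 larvae. Calls are at a Benjamini-Hochberg adjusted p below 0.05 over all models tested. Standard errors are the log2 fold change divided by the square root of F. Floors use 3 counts, per larva for splits within a group and over the group for pooled ratios, and ratios of pooled counts carry exact 95% Poisson intervals. Alternatives were RLE scaling, no filter, DESeq2 1.42.0, limma 3.58.1 voom, a replicate block and other larvae and thresholds. Refits that left out each larva of the groups compared, and the named pairs and members on per group without the 8 larvae, were added after seeing the data.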

Additional observations from a re-analysis of the deposited data

Results flagged for a closer look

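Day-night replicate 3 at 9 hpe had 73 members on, far above the next larva of its group at 54. Constant-dark replicate 7 at 9 hpe had a total of 3485926 counts against 2658612 in the next larva. The other entries are levels of the 8 members with the highest median when on, among those split in all 6 groups, for which 1 larva lay far from its group. The limit was that of Dixon's outlier test, which flags about 5% of sets of normally distributed values, and 20 of 66 sets looked at met it. Most of the 20 came from these models, which the rule chose for such larvae. The share is therefore a description and cannot be read as an excess over chance.

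In CPM, Aqu2.1.19929_001 reached 138 in constant-light replicate 6 at 1 hpe, with 1.29 in the next larva. Aqu2.1.12991_001 reached 352 in constant-dark replicate 7 at 1 hpe (next 138), 157 in constant-light replicate 1 at 1 hpe (next 1.29) and 217 in day-night replicate 3 at 9 hpe (next 61.7). Aqu2.1.12994_001 reached 76.6 in the same constant-light replicate 1 at 1 hpe (next 0.336). Aqu2.1.04809_001 reached 124 in day-night replicate 7 (next 3.66) and 143 in constant-dark replicate 6 (next 0.884), both at 1 hpe. Aqu2.1.20087_001 reached 67.5 in constant-dark replicate 1 at 1 hpe (next 3.17).

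Aqu2.1.07402_001 reached 75.9 in day-night replicate 3 (next 10.5) and 104 in constant-light replicate 4 (next 1.91) at 1 hpe, and 142 in day-night replicate 4 (next 27.7) and 93.4 in constant-light replicate 1 (next 9.75) at 9 hpe. Aqu2.1.06990_001 reached 348 in day-night replicate 2 at 1 hpe (next 7.05), and 85.7 in day-night replicate 6 (next 7.01) and 63.0 in constant-light replicate 6 (next 20.7) at 9 hpe. Aqu2.1.05034_001 reached 39.7 in constant-dark replicate 3 at 1 hpe (next 0.759), and 102 in constant-dark replicate 7 (next 0.880) and 80.7 in constant-light replicate 1 (next 1.83) at 9 hpe.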

How the results depend on the processing

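The number of members, 180, was 408 with on at 10 CPM, 67 at 40 CPM, 310 with 3 groups split, 75 with 5 and 101 without the 8 larvae that stood apart. It was 249 with off at 1 count or fewer, 182 and 176 with TMM and DESeq2 scaling, 220 after thinning to the lowest total, and 160 to 177 without 1 larva. With no filter the day-night, constant-dark and constant-light age comparisons called 0, 1 and 0 members, against 6.19%, 5.001% and 1.08% of all models. In the same order limma voom called 0, 0 and 1, against 20.1%, 19.2% and 6.27%. The limma voom call was of a model that edgeR did not call there. Without the 8 larvae 6, 2 and 2 members were called, against 20.3%, 11.1% and 1.53%. Of these, 5, 1 and 0 were also called with all larvae. No day-night larva was among the 8. At 1 hpe DESeq2 called 1 in constant dark against day-night, 4 in constant light against day-night and 4 in constant light against constant dark. At 9 hpe it called 4, 4 and 6 members, or 2.35%, 2.35% and 3.53%, against 2.60%, 6.82% and 2.15% of all models. There limma voom called 0, 0 and 0, against 1.64%, 4.75% and 0.691% of all models. The fit with no filter called 0 in the first and 0 in the last, against 0.517% and 0.203% of all models. Without the 8 larvae, constant light against day-night gave 1 at the younger and 2 at the older age, against 0.425% and 1.58% of all models. Constant light against constant dark gave 0 at the older, against 0.225% of all models. The cause of these moves was not tested. With a replicate block there were 3 day-night and 1 constant-light age calls, against 19.4% and 5.29% of all models. In constant light against constant dark at 9 hpe that fit called 0, against 0.670% of all models. Same-numbered larvae had a mean correlation of deviations of -0.00560 over 105 pairs, 4 of them over 0.1, and 4 of 43 larvae were most alike a same-numbered larva. Without 1 larva the age counts were 2 to 7, 3 to 7 and 1 to 6, those at 1 hpe 0, and those at 9 hpe 0 to 1, 1 to 3 and 0 to 1. The share of all models called was not taken in these refits. RLE scaling changed no count. Depth limits what 0 counts mean to below 0.764 to 1.59 CPM.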

Other observations

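Outside the Aqu2.1 models, 11 transcript models with TCONS identifiers met the same rule, which with them would hold 191 models.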
